A study of Mus musculus with 8 samples.

Results

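The genes described here are the hypoxia response and glycolysis genes of the embryonic mouse brain cortex, 40 genes listed by name as glycolytic enzymes or as other targets and regulators of the hypoxia-inducible factors (HIF). Probe sets that the platform annotation gives to exactly 1 symbol measured 37 of the 40, out of 19938 genes measured in all, and Ca9 was read under its mouse symbol Car9. Eno1 and Gpi1 had no such probe set in the annotation used here, and Gapdh stood only on 25 probe sets that the annotation shares with other genes. By role, the measured members were 13 glycolytic enzymes, 5 regulators and carriers of glycolysis, 13 other HIF targets and 6 genes of oxygen sensing. Genes entered by name and not by a threshold on these values, but the list was chosen with earlier results of these data known. Its counts, set beside those of all genes, are therefore not independent of these arrays.

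The arrays came from cortex at embryonic day 16 on a mixed strain background. In the 4 VEGF-labelled arrays the embryos were bitransgenic for GFAP-tTA, a tetracycline-controlled transactivator under the promoter of the glial gene Gfap, and for TetO-VEGF-A164, a VEGF-A transgene that the transactivator switches on. The 4 control arrays are labelled wild type and lack TetO-VEGF-A164, and the labels do not say whether any control embryo carried GFAP-tTA, whether an array pooled embryos, or whether the embryos of a group came from separate litters. The comparison asks how the cortex differs when VEGF-A is overexpressed, and with such controls the transgene cannot be told apart from the transactivator or strain differences. The p-values reflect only how these 8 arrays scatter, which may in part be technical, and their number limits the precision. Vegfa, itself a HIF target, differed by 0.053 with an SE of 0.051 and did not separate the groups (limma, adjusted p = 0.748), so it does not check the labels, and directions are those of the arrays as labelled. Each value is relative to the median of its own probe set over the 8 arrays on a scale read as log2, with folds that hold only for that base, so levels cannot be compared between genes, and absent genes or the identity of the tissue cannot be read. In bulk tissue, fewer cells of a type and less RNA per cell cannot be told apart. Over all probe sets, the interquartile range was between 0.065 in VEGF 4 and 0.14 in VEGF 2 among VEGF-labelled arrays, and between 0.061 in control 4 and 0.10 in control 2 among control arrays. Xist gave a female pattern in 2 of 4 VEGF-labelled arrays, VEGF 2 and VEGF 3, and in 1 of 4 control arrays, control 3.

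Cells sense oxygen through prolyl hydroxylases that mark HIF alpha subunits for destruction by the Vhl ubiquitin ligase. When oxygen is short the alpha subunits persist, pair with Arnt and bind a short DNA element, the hypoxia response element, near genes for glucose uptake, glycolysis, lactate export and vessel growth, Vegfa among them. Glycolysis splits glucose into pyruvate in the cytosol, and proliferating neural progenitors are known to rely on it more than differentiated neurons, which express isoforms of their own such as Eno2.

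The core of the hypoxia response element was looked for in the promoters, since it is the feature that members of the HIF groups are known to share and the measurements did not use. RefSeq promoter windows of GRCm38.p6 were available for 33 of the 37 measured members, and the 250 bases before the first listed start of each gene were searched for ACGTG and GCGTG on both strands. A core was present in 26 of 33 members (78.8%), against 43.8% of 17492 protein-coding genes and 38.6% of all 32851 windows of the table. By role, it was present in 8 of 13 glycolytic enzymes, 4 of 4 regulators and carriers, 10 of 11 other HIF targets and 4 of 5 oxygen sensing genes. CACGTG holds an overlapping match on each strand, and each strand was counted. The members' windows were also richer in CG pairs, with a median of 19 a window against 10 in protein-coding genes, and both core motifs contain a CG pair. The windows of 6 members named below are shown 5′ to 3′ with core matches in capitals. They are 4 genes with higher and 2 with lower means in the VEGF-labelled arrays.
Slc16a3 (chr11:120948817-120949066, plus strand): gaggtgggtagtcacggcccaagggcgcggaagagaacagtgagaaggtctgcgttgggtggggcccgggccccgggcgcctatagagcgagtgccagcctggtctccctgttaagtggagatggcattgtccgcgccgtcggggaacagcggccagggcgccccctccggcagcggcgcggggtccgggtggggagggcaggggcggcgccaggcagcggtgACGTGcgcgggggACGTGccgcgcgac
Ldha (chr7:46845554-46845803, plus strand): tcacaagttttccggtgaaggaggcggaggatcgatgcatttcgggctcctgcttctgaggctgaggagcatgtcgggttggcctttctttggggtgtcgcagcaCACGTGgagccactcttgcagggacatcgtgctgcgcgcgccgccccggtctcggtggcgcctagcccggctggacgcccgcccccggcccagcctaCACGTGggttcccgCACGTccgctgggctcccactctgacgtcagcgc
Pgk1 (chrX:106186850-106187099, plus strand): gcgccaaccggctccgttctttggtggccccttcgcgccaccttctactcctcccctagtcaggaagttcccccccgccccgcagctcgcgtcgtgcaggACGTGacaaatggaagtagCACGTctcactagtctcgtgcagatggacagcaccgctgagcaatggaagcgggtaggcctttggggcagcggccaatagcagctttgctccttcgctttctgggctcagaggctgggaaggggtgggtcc
Hk2 (chr6:82774455-82774704, minus strand): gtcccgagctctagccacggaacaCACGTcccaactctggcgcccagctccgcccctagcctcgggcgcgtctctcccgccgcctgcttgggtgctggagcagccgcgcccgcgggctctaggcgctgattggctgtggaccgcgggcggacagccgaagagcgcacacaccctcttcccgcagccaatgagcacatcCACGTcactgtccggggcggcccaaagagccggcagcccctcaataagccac
Ddit4 (chr10:59951771-59952020, minus strand): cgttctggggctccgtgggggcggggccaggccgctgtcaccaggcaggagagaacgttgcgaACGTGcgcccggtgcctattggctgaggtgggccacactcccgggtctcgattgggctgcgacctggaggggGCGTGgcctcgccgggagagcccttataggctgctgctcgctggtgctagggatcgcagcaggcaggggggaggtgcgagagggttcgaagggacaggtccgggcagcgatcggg
Eno2 (chr6:124769674-124769923, minus strand): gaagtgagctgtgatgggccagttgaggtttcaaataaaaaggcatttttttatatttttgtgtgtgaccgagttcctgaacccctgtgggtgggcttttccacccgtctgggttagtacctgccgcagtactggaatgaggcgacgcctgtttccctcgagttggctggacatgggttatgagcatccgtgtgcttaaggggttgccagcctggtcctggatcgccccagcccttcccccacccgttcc
Slc16a3 holds 2 cores within 27 bases of the start, Ldha holds 5 matches from 3 places, and Pgk1, Hk2 and Ddit4 hold 2 each. Eno2 holds none in these 250 bases. A match is a description of the letters, not a measured binding site, and many members were listed as HIF targets in the first place.

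No member passed the test over all genes, and the members' differences had both signs. Of the 37 measured members, 20 had a higher mean in the VEGF-labelled arrays, where 43.3% of all genes did, and 17 a lower one, and the median difference was 0.014 on the log2 scale, against -0.010 over all 19938 genes. Limma with Benjamini-Hochberg adjustment over all genes called 0 of 37 members at an adjusted p under 0.05, as it called 0% of all genes, and the members' lowest adjusted p was 0.254. At an unadjusted limma p under 0.05 there were 8 members, or 21.6%, against 12.5% of all genes. Slc16a3, Hk2 and P4ha1 were the 3 higher ones, where the share of all genes was 4.62%, and Ndrg1, Pfkm, Eno2, Ddit4 and Mxi1 the 5 lower ones, where it was 7.84%. The groups did not overlap in 3 members, or 8.11%, against 6.84% of all genes, a share close to the background. They were Slc16a3 and Ldha on the higher side, where 2.13% of all genes stood, and Pfkm on the lower, where 4.71% did.

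The member counts moved with single arrays. The count of higher members at an unadjusted limma p was 1 of 37 (2.7%) without control 1, without control 2 or without VEGF 2, against 2.4%, 3.47% and 3.35% of all genes in the same 3 fits. Without VEGF 4 it was 6 (16.2%), against 6.1% of all genes. The count of lower members was 3 (8.11%) without control 4, against 5.24% of all genes. A group of 3 arrays overlaps less readily, in members and in all genes. The groups did not overlap in 9 members (24.3%) without VEGF 4, against 13% of all genes. Without control 3 they did not overlap in 8 members (21.6%), against 13.7% of all genes, and without VEGF 2 in 5 (13.5%), against 9.86%. Leaving out 1 array brought the difference of 29 of the 37 members more than 1.5 times nearer to 0 or across it, and 11 of the 13 glycolytic enzymes were among them. The other 8 were Pfkm, Eno2, Pfkfb4, Slc16a3, Ndrg1, P4ha1, Ddit4 and Mxi1. The omission that moved each gene most toward 0 was used, and all genes were not counted this way. The count therefore does not set the members apart from other genes. Differences beyond 0.1 in either direction were found in 15 of 37 members (40.5%), against 21.7% of all genes. The median range over the 8 arrays was 0.29 in members and 0.23 in all genes. Genes that the cortex does not express could not be taken out of all genes, and their part in these shares was not tested.

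**Figure D1:**
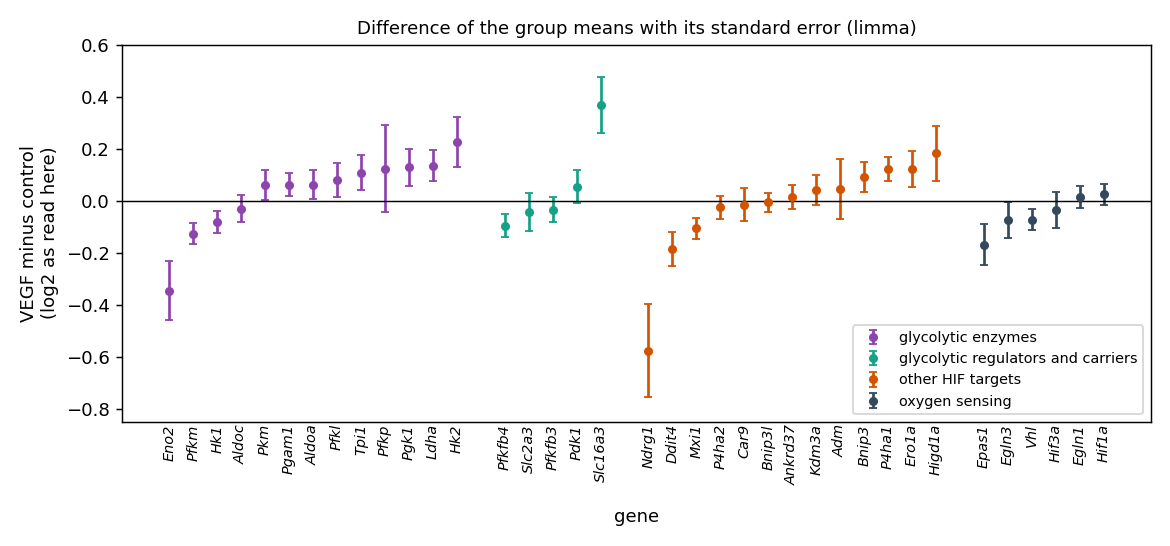
Difference of the group means, VEGF-labelled minus control, for the 37 measured members, with bars of 1 SE from limma and colours for the 4 role groups; the vertical axis is in log2 units as read here. Ndrg1 lies lowest at -0.58 and Slc16a3 highest at 0.37, and most members lie within 0.2 of 0.

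Among the glycolytic enzymes, 9 of 13 had a higher and 4 a lower mean in the VEGF-labelled arrays, with a median difference of 0.061. None of the 13 passed over all genes. The median was 0.019 without VEGF 3 and 0.093 without VEGF 2. The pathway begins with hexokinase, which traps glucose in the cell as its phosphate. Hk2, the hexokinase known as HIF-responsive, had the highest difference of the enzymes. Hk2 was at 0.061, 0.089, 0.46 and -0.0086 in VEGF 1 to VEGF 4, against -0.11, -0.18, 0.0086 and -0.021 in control 1 to control 4. VEGF 3 stood far above the other VEGF-labelled arrays, VEGF 4 lay within the control range, and the groups overlapped. The difference was 0.23 with an SE of 0.097, or 1.17-fold (limma, adjusted p = 0.387, exact two-sided permutation p = 0.057), and it was 0.12 without VEGF 3. Hk1, the hexokinase of most brain cells, had a difference of the other sign, -0.083 (SE 0.042), and -0.053 without VEGF 3. Its values ran from -0.14 to 0.015 in the VEGF-labelled and from -0.026 to 0.061 in the control arrays. They average 2 unlike probe sets. The probe set with a difference of -0.14 had VEGF 3 lowest, at -0.29. The probe set with a difference of -0.026 had VEGF 3 at -0.00058 and VEGF 1 lowest.

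The 3 phosphofructokinase genes, subunits of the enzyme that commits sugar to glycolysis, had differences of both signs. Pfkm, the muscle-type subunit, was the lower of the 2 enzymes whose groups did not overlap. Pfkm was at -0.022, -0.040, -0.14 and -0.051 in VEGF 1 to VEGF 4, against 0.095, 0.12, 0.022 and 0.025 in control 1 to control 4. All VEGF-labelled arrays were below 0 and all control arrays above it. The means were -0.063 ± 0.052 in the VEGF-labelled arrays and 0.064 ± 0.048 in the control arrays (n = 4 each, SD). They differ by -0.13 with an SE of 0.040 (limma, adjusted p = 0.278). The exact two-sided permutation p was 0.0286, the smallest that 4 against 4 arrays can give. Any gene whose groups do not overlap has this p, so it only restates the lack of overlap. Pfkl, the liver-type subunit, differed by 0.080 (SE 0.066), and by 0.016 without VEGF 3. Pfkp, the platelet-type subunit, differed by 0.12 with an SE of 0.17 and was the widest of the enzymes, at 0.32 and 0.56 in VEGF 1 and VEGF 2 but -0.34 in VEGF 3. These 3 arrays lay on both sides of the control range, which ran between -0.061 and 0.12, and without VEGF 2 the difference was -0.019.

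Of the enzymes that follow, most had slightly higher means. Aldoa and Aldoc, the aldolases that split the sugar, differed by 0.061 and -0.032, and Tpi1, which interconverts the triose phosphates, by 0.11. Without VEGF 3, Aldoa differed by 0.019 and Tpi1 by 0.046, and without VEGF 2 Aldoc differed by -0.0041. Pgk1, the first ATP-yielding enzyme of the pathway, was measured by 3 probe sets, each of which gave a difference of 0.13. Some of these probe sets had nearly equal values in every array, so they need not be independent readings. Pgk1 was at -0.012, 0.021, 0.29 and 0.013 in VEGF 1 to VEGF 4, against -0.14, -0.028, 0.041 and -0.073 in control 1 to control 4. VEGF 3 was highest and control 1 lowest, and the other 6 arrays of both groups were mixed. The difference was 0.13 with an SE of 0.071 (limma, adjusted p = 0.514) and 0.058 without VEGF 3. Pgam1, the phosphoglycerate mutase, differed by 0.061 and Pkm, the pyruvate kinase, by 0.060. Without VEGF 3 these were 0.024 for Pgam1 and 0.0055 for Pkm.

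Ldha, the lactate dehydrogenase subunit that favours pyruvate to lactate, was the enzyme with higher values and no overlap. Ldha was at 0.023, 0.024, 0.23 and 0.0056 in VEGF 1 to VEGF 4, against -0.17, -0.012, -0.0056 and -0.069 in control 1 to control 4. The VEGF-labelled values were all above 0 and the control values all below, though VEGF 4 and control 3 lay close together on either side. The means were 0.072 ± 0.11 in the VEGF-labelled arrays and -0.063 ± 0.074 in the control arrays (n = 4 each, SD). The difference was 0.13 with an SE of 0.060, or 1.10-fold (limma, adjusted p = 0.407, exact two-sided permutation p = 0.0286), and 0.081 without VEGF 3. Eno2, the enolase of neurons, had the lowest difference of the enzymes. Eno2 was at -0.11, 0.00036, -0.53 and -0.34 in VEGF 1 to VEGF 4, against 0.30, -0.00036, 0.047 and 0.069 in control 1 to control 4. VEGF 3 and VEGF 4 lay below all other arrays, while VEGF 2 and control 2 lay next to each other at about 0 and the ranges met there. The difference was -0.35 with an SE of 0.11, or 0.786-fold (limma, adjusted p = 0.289, exact two-sided permutation p = 0.057).

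**Figure D2:**
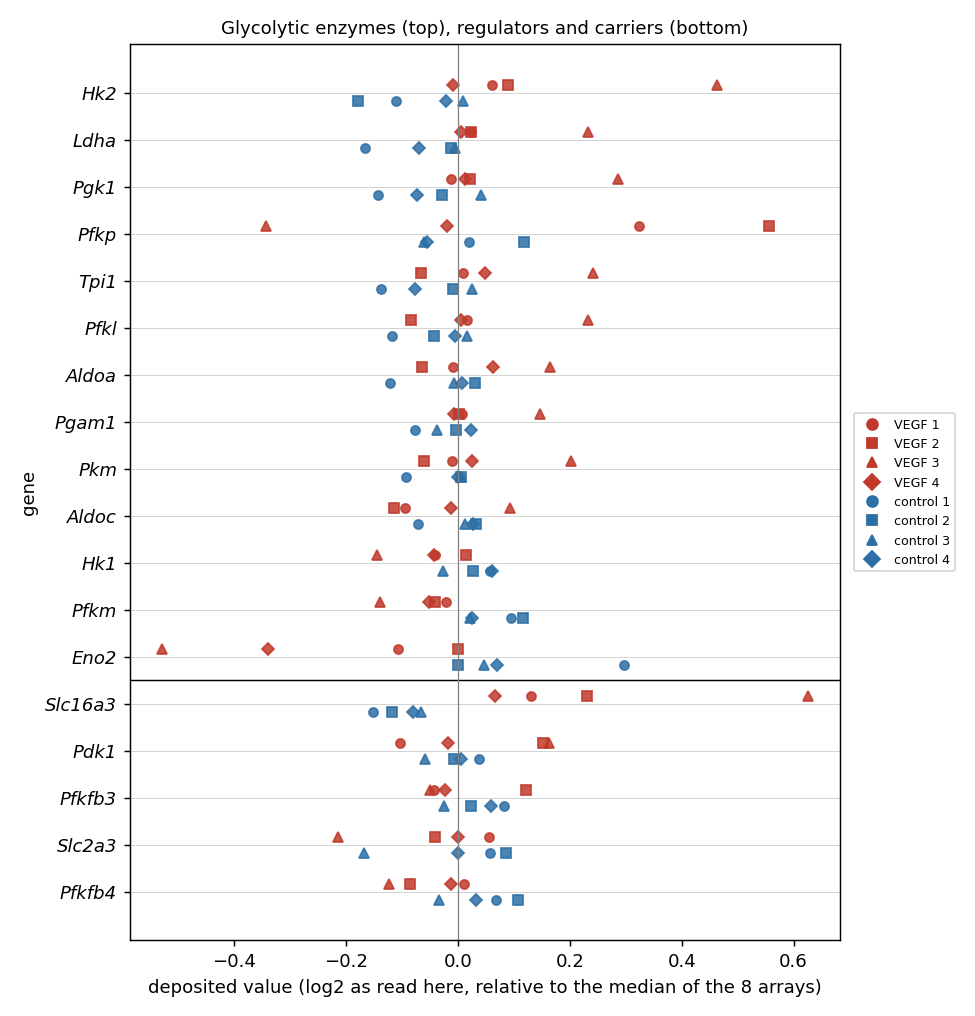
Deposited values of the glycolytic enzymes above the line and of the regulators and carriers below it, on the horizontal axis in log2 units relative to the median of the 8 arrays; within each gene the upper row of points (red) is the VEGF-labelled arrays and the lower row (blue) the control arrays, with 1 marker shape per replicate number. The triangle of VEGF 3 is at an end of the row in all 13 enzymes, and Slc16a3 shows 4 VEGF-labelled arrays above all 4 control arrays.

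VEGF 3 stood at an end of the range in every measured glycolytic enzyme, a description made after the values were seen and over enzymes that share the same arrays. It was the highest of the 8 arrays in 9 of the 13 enzymes and the lowest in the other 4, Hk1, Pfkm, Pfkp and Eno2. In Hk1 this held for the averaged value but not for each of its probe sets. The array was thus at an end in 13 of 13 enzymes, and also in 5 of 5 regulators and carriers, against 34.6% of all genes, in which it was the highest in 12.4% and the lowest in 22.2%. Control 1 was at an end in 8 of the 13 enzymes, the lowest in 7 and the highest in Eno2, against 21.7% of all genes. Among the other HIF targets VEGF 3 was at an end in 4 of 13, and VEGF 2 in 8 of 13, where VEGF 2 was at an end in 44.9% of all genes. VEGF 3 also held the highest mean of 9 measured mitosis genes and of 11 radial glia markers. It held the lowest mean of 11 interneuron and ventral forebrain, 12 endothelial, 8 meninges and fibroblast and 10 astrocyte markers. Its mean over all genes was the lowest of the 8 arrays as well, at -0.025. The mitosis means were -0.046, 0.12, 0.26 and 0.030 in VEGF 1 to VEGF 4, against -0.18, -0.22, 0.057 and -0.097 in control 1 to control 4, with 9 of 9 genes higher in the VEGF-labelled arrays. The radial glia means were -0.0029, 0.094, 0.19 and 0.072 in VEGF 1 to VEGF 4, against -0.13, -0.056, 0.016 and -0.070 in control 1 to control 4, with 9 of 11 genes higher. The interneuron means were -0.24, -0.15, -0.85 and -0.22 in VEGF 1 to VEGF 4, against 0.42, 0.24, 0.053 and 0.30 in control 1 to control 4, with 11 of 11 lower. All marker lists used here were chosen with earlier results of these data known, so their counts are not independent of these arrays. Over all genes, 43.3% had a higher mean in the VEGF-labelled arrays. The part of these cell populations in the profile of the glycolytic enzymes was not tested.

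**Figure D3:**
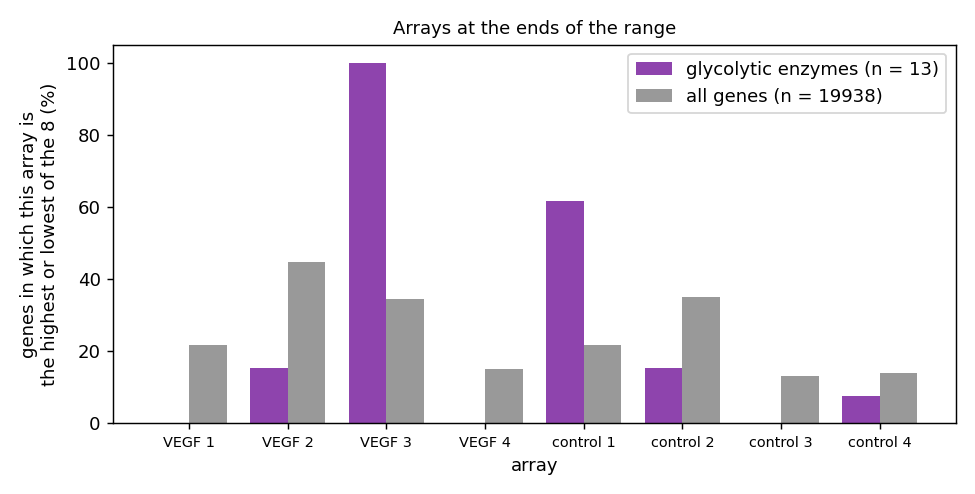
Share of genes, in percent on the vertical axis, in which each of the 8 arrays on the horizontal axis had the highest or lowest value, for the 13 glycolytic enzymes (purple) and all 19938 genes (grey). VEGF 3 reaches 100% of the enzymes against 34.6% of all genes, and control 1 61.5% against 21.7%.

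Among the 5 regulators and carriers, 2 had a higher and 3 a lower mean, with a median difference of -0.034, and none passed over all genes. Slc16a3, the carrier that exports lactate from glycolytic cells and a HIF target, had the highest difference and the smallest unadjusted p of all members. Slc16a3 was at 0.13, 0.23, 0.63 and 0.067 in VEGF 1 to VEGF 4, against -0.15, -0.12, -0.067 and -0.080 in control 1 to control 4. The groups did not overlap, the control arrays were tightly placed, and VEGF 3 stood well above the other VEGF-labelled arrays. The means were 0.26 ± 0.25 in the VEGF-labelled arrays and -0.10 ± 0.039 in the control arrays (n = 4 each, SD). The difference was 0.37 with an SE of 0.11, or 1.29-fold (limma, adjusted p = 0.254, exact two-sided permutation p = 0.0286), and it was 0.25 without VEGF 3. Slc2a3, the neuronal glucose carrier, differed by -0.044 (SE 0.072), and by 0.011 without VEGF 3. Pdk1, the kinase that holds pyruvate back from the mitochondria, differed by 0.054 (SE 0.062). Pdk1 was at -0.10, 0.15, 0.16 and -0.017 in VEGF 1 to VEGF 4, against 0.037, -0.0062, -0.059 and 0.0062 in control 1 to control 4. VEGF 2 and VEGF 3 were above the control range and VEGF 1 below it, and without VEGF 3 the difference was 0.016. Pfkfb3 and Pfkfb4, which set the level of the phosphofructokinase activator fructose 2,6-bisphosphate, differed by -0.034 and -0.096, and Pfkfb3 by -0.017 without VEGF 3.

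The other HIF targets were divided, with 7 of 13 higher and 6 lower and a median difference of 0.014. Ndrg1, a stress- and hypoxia-responsive gene of the N-myc downstream regulated family that is also known from myelinating glia, had the largest difference of all members in either direction. Ndrg1 was at -0.73, -0.71, -0.66 and 0.13 in VEGF 1 to VEGF 4, against 0.20, 0.11, -0.11 and 0.13 in control 1 to control 4. The first 3 VEGF-labelled arrays lay far below every control array, while VEGF 4 lay within the control range. The means were -0.49 ± 0.42 in the VEGF-labelled arrays and 0.082 ± 0.13 in the control arrays (n = 4 each, SD). The difference was -0.58 with an SE of 0.18, or 0.671-fold (limma, adjusted p = 0.272, exact two-sided permutation p = 0.114). Ndrg1 was the only member to pass in any alternative tried: without VEGF 4 it differed by -0.78 (limma, adjusted p = 0.029), and over all alternatives its adjusted p ranged between 0.029 and 0.632. The projection neuron markers, 11 measured with 10 lower, were below every control mean in the same 3 arrays. Their mean was -0.35, -0.41, -0.19 and 0.035 in VEGF 1 to VEGF 4, against 0.20, 0.013, 0.030 and 0.18 in control 1 to control 4. The thalamus and hippocampus markers, 8 measured with 7 higher, had means of 0.69, 0.59, 0.096 and -0.22 in VEGF 1 to VEGF 4, against -0.31, 0.27, -0.17 and -0.29 in control 1 to control 4. Both lists were chosen with earlier results of these data known, and the part of either in the Ndrg1 values was not tested.

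Ddit4, an inhibitor of the growth kinase complex mTORC1 that hypoxia induces, was the next lower gene of this group. Ddit4 was at -0.24, -0.26, -0.12 and 0.020 in VEGF 1 to VEGF 4, against 0.018, -0.014, 0.014 and 0.12 in control 1 to control 4. VEGF 1 to VEGF 3 lay below every control array and VEGF 4 lay inside the control range. The difference was -0.19 with an SE of 0.064, or 0.879-fold (limma, adjusted p = 0.310, exact two-sided permutation p = 0.114). Mxi1, an antagonist of Myc that HIF induces, was also lower in the means. Mxi1 was at -0.089, -0.071, -0.10 and 0.0074 in VEGF 1 to VEGF 4, against 0.084, 0.0049, -0.0049 and 0.084 in control 1 to control 4. Its difference was -0.11 with an SE of 0.040 (limma, adjusted p = 0.338, exact two-sided permutation p = 0.0857). Of the VEGF-labelled arrays only VEGF 4 lay in the control range.

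On the higher side, P4ha1, the catalytic subunit of the prolyl hydroxylase that stabilises collagen, had the smallest p of this group. P4ha1 was at -0.017, 0.046, 0.077 and 0.017 in VEGF 1 to VEGF 4, against -0.17, -0.12, -0.082 and 0.018 in control 1 to control 4. Control 1 to control 3 lay below every VEGF-labelled array and control 4 lay among them. The difference was 0.12 with an SE of 0.046, or 1.09-fold (limma, adjusted p = 0.345, exact two-sided permutation p = 0.0857). Its sister subunit P4ha2 differed by -0.025 (SE 0.044), and by 0.0019 without VEGF 2. Higd1a, a small protein of the mitochondrial inner membrane, differed by 0.18 (SE 0.10). Higd1a was at 0.086, 0.48, 0.10 and -0.088 in VEGF 1 to VEGF 4, against -0.081, -0.045, 0.062 and -0.081 in control 1 to control 4. VEGF 2 alone stood far above, and without it the difference was 0.070. The 2 probe sets of Higd1a gave differences of 0.28 and 0.086.

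The other 7 members of the group differed by between -0.016 and 0.12. Ero1a, an oxidase of the endoplasmic reticulum that supports disulphide formation, differed by 0.12, and Bnip3, a receptor for mitophagy, by 0.090. Bnip3l, its relative that clears mitochondria from maturing red cells, differed by -0.0067. Adm, the vasodilator peptide adrenomedullin, differed by 0.045, the histone demethylase Kdm3a by 0.041, the ankyrin repeat gene Ankrd37 by 0.014 and the carbonic anhydrase Car9 by -0.016. The SE of these 7 differences lay between 0.038 for Bnip3l and 0.12 for Adm. In all 7 the groups overlapped. Without VEGF 2 the difference was 0.057 for Ero1a, 0.047 for Bnip3, 0.017 for Bnip3l, -0.029 for Adm and 0.033 for Car9. It was 0.0023 for Kdm3a without control 2 and -0.013 for Ankrd37 without VEGF 1. The signs of Bnip3l, Adm, Car9 and Ankrd37 thus turned with 1 array.

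**Figure D4:**
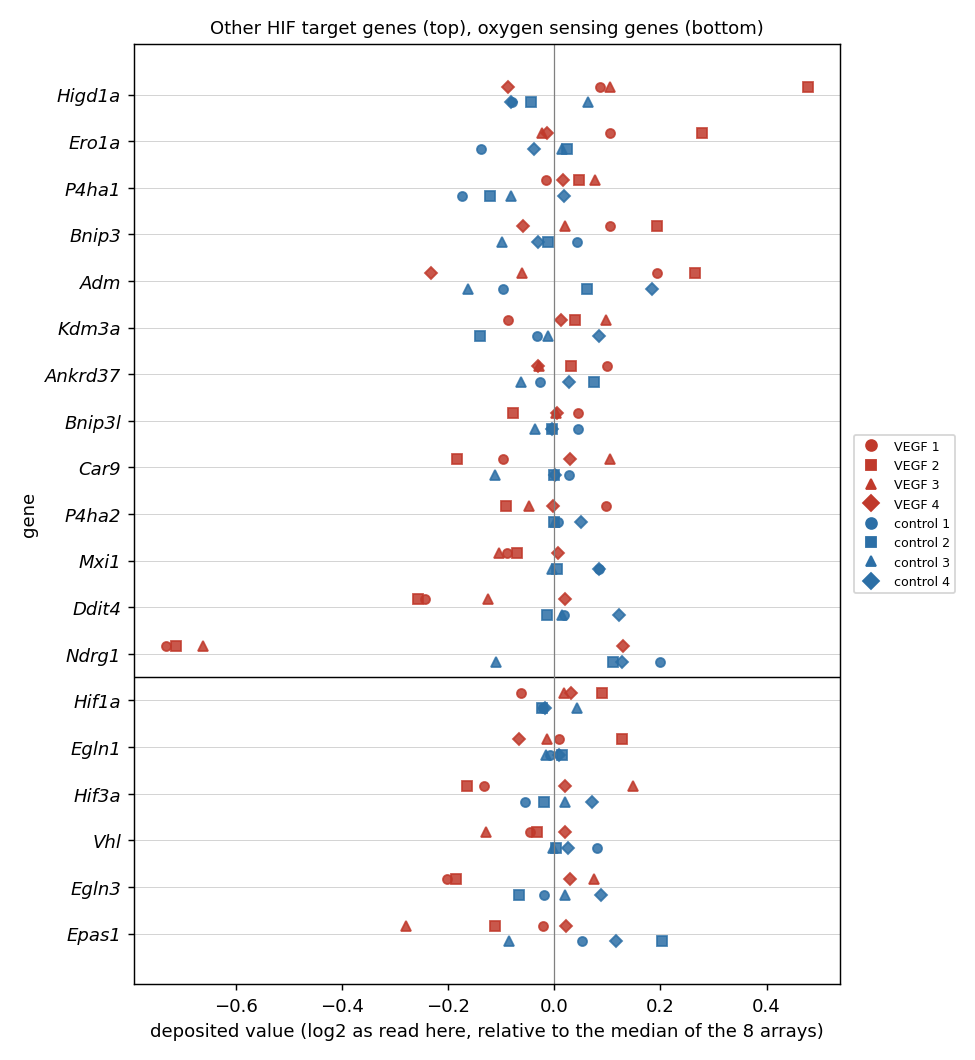
Deposited values of the other HIF targets above the line and of the oxygen sensing genes below it, on the horizontal axis in log2 units relative to the median of the 8 arrays; upper points (red) are VEGF-labelled arrays, lower points (blue) control arrays, and marker shape gives the replicate number. In Ndrg1 the first 3 VEGF-labelled arrays lie between -0.73 and -0.66 and VEGF 4 lies among the controls.

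In the oxygen sensing genes, 2 of 6 had a higher and 4 a lower mean, with a median difference of -0.055, and none reached an unadjusted limma p under 0.05. Hif1a, the alpha subunit found in most cells, differed by 0.024 with an SE of 0.040 (limma, adjusted p = 0.877). Hif1a was at -0.063, 0.089, 0.018 and 0.031 in VEGF 1 to VEGF 4, against -0.022, -0.024, 0.043 and -0.018 in control 1 to control 4. The 8 values spanned 0.15, and both groups covered 0. Without VEGF 2 the Hif1a difference was 0.00024. HIF-1 alpha is regulated mainly as a protein, which these arrays do not measure. Epas1, the HIF-2 alpha subunit prominent in endothelium, differed by -0.17 with an SE of 0.079 (limma, adjusted p = 0.425). Epas1 was at -0.021, -0.11, -0.28 and 0.021 in VEGF 1 to VEGF 4, against 0.051, 0.20, -0.085 and 0.12 in control 1 to control 4. The lowest array of each group was VEGF 3 and control 3, and the groups overlapped. Without VEGF 3 the Epas1 difference was -0.11. The 12 endothelial markers had means of 0.011, 0.072, -0.26 and 0.038 in VEGF 1 to VEGF 4, against 0.051, 0.11, -0.17 and 0.0063 in control 1 to control 4. The 8 meninges and fibroblast markers had means of 0.013, 0.13, -0.47 and 0.068 in VEGF 1 to VEGF 4, against -0.065, 0.11, -0.26 and 0.011 in control 1 to control 4. Both marker lists, like Epas1, were lowest in VEGF 3 among the VEGF-labelled arrays and in control 3 among the control arrays. This was not particular to them. The interneuron and ventral forebrain markers, at -0.85 in VEGF 3 and 0.053 in control 3, had the same lowest arrays. So did the mean over all genes, at -0.025 and -0.0048. The median difference was -0.0086 for endothelial, 0.024 for meninges and fibroblast and -0.53 for interneuron and ventral forebrain markers. The part of any of these in the Epas1 values was not tested. Hif3a, an alpha subunit with inhibitory forms, differed by -0.036 (SE 0.069), and by 0.0083 without VEGF 2.

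Vhl, which recognises hydroxylated HIF alpha for degradation, differed by -0.074 with an SE of 0.041 (limma, adjusted p = 0.515). Vhl was at -0.046, -0.033, -0.13 and 0.020 in VEGF 1 to VEGF 4, against 0.080, 0.0025, -0.0025 and 0.026 in control 1 to control 4. VEGF 1 to VEGF 3 lay below every control array and VEGF 4 lay within the control range, and without VEGF 3 the difference was -0.046. Egln3, an oxygen-sensing prolyl hydroxylase that is itself a HIF target, differed by -0.076 (SE 0.070). Egln3 was at -0.20, -0.19, 0.075 and 0.029 in VEGF 1 to VEGF 4, against -0.020, -0.068, 0.020 and 0.087 in control 1 to control 4. VEGF 1 and VEGF 2 were the lowest of the 8 arrays, while VEGF 3 and VEGF 4 lay within the control range, and without VEGF 1 the difference was -0.032. Egln1, the main hydroxylase of HIF-1 alpha, differed by 0.014 (SE 0.044), and by -0.024 without VEGF 2.

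Genes of the same pathways outside the 40 had differences of both signs as well. Both further lists were also chosen with earlier results of these data known, so their counts are not independent of these arrays. Of 29 measured further HIF pathway genes and targets, of 31 listed, 0 passed over all genes, 12 were higher and 17 lower, and the median was -0.014. At an unadjusted limma p under 0.05, 5 were higher and 3 lower, or 27.6% in either direction, against 12.5% of all genes. Plod2, a collagen lysyl hydroxylase, differed by 0.38 (SE 0.10), the mitochondrial adenylate kinase Ak4 by 0.29 (SE 0.087) and the glycogen branching enzyme Gbe1 by 0.24 (SE 0.069). Their adjusted p lay between 0.243 and 0.265 in limma. Plod2 was at 0.092, 0.36, 0.43 and 0.00026 in VEGF 1 to VEGF 4, against -0.30, -0.11, -0.00026 and -0.22 in control 1 to control 4. The groups did not overlap in 3 higher genes of the list, Plod2 and Ak4 among them, and in 1 lower gene. These were 13.8% of the measured list, against 6.84% of all genes. VEGF 3 was the highest array in Plod2 and Ak4. On the lower side was Ccng2, an atypical cyclin and the lower gene without overlap, at -0.21. Cited2, which competes with HIF for its coactivator, was at -0.19, and Arnt2, the neural partner of HIF alpha, at -0.14.

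Of 25 measured further genes of glycolysis and pyruvate use, of 30 listed, 0 passed over all genes, 11 were higher and 14 lower, and the median was -0.022. At an unadjusted limma p under 0.05, 0 were higher and 2 lower, or 8% in either direction, below the 12.5% of all genes. Pdk2, a pyruvate dehydrogenase kinase of the same family as Pdk1, had the smallest p of both lists. Pdk2 was at -0.20, -0.30, -0.21 and -0.046 in VEGF 1 to VEGF 4, against 0.16, 0.077, 0.046 and 0.18 in control 1 to control 4. The groups did not overlap, and the difference was -0.31 with an SE of 0.058, or 0.809-fold (limma, adjusted p = 0.243). Ldhb, the lactate dehydrogenase subunit that favours lactate to pyruvate, had a difference of the opposite sign to Ldha, -0.17 (SE 0.053), also without overlap. Ldhb was at -0.12, -0.042, -0.058 and -0.062 in VEGF 1 to VEGF 4, against 0.24, -0.024, 0.097 and 0.11 in control 1 to control 4. The Ldhb values of control 2 and VEGF 2 lay close together at the border of the ranges. In this list 3 lower and 0 higher genes were without overlap, or 12%, against 6.84% of all genes. Pfkfb2 differed by -0.15, and the 3 genes of smallest p on the higher side were the pyruvate dehydrogenase subunit Pdha1 at 0.13, the sugar mutarotase Galm at 0.18 and the kinase Pdk3 at 0.17.

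Some members were measured by several probe sets, 7 of the 37, and these could differ. The probe sets of Hk1 gave -0.14 and -0.026, and those of Bnip3 0.039 and 0.14. Hk1 also stood on 16 probe sets that the annotation shares with other genes, which were not used. Those of Pgk1 gave 0.13 each, those of Pgam1 0.053 to 0.065 and those of Pkm 0.058 and 0.062. The annotation does not tell whether some of them read near-identical copies elsewhere in the genome. Each was averaged per gene here.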

How the data were processed

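Cortex RNA, 120 ng a sample, was labelled and hybridised to 4 VEGF-labelled and 4 control whole-transcript arrays, per the labels' protocols. Per the submitters' processing notes, Affymetrix Expression Console and the build mm8 were used; how background was corrected and probes were summarised is not given in the sources. The table that the authors deposited was read as log2, though the base of the logarithm is not stated. It has 28853 probe sets, and for each one the median of the 8 arrays is 0, so no brightness, dim-probe filter or signal over background could be had. Another base would rescale every difference alike.

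In the platform annotation 21789 probe sets had 1 symbol, 1621 had several and 5443 were not named by it. RefSeq (GRCm38.p6) gave current symbols by Entrez identifier, and averaging probe sets per gene left 19938 genes. Differences are VEGF-labelled minus control, from limma 3.58.1 in R 4.3.3 with no covariate, and p-values were adjusted over all genes by Benjamini-Hochberg. Single members were also compared with exact two-sided permutation tests over 70 arrangements. Samples were grouped by their titles. The fit was tested on simulated data. The members and lists were chosen with earlier results of these data known. All measured members are named, with values of every array for the 6 of smallest p in each direction and for Ldha, Pgk1, Pdk1, Hif1a, Epas1, Vhl and Egln3. From each further list the 3 of smallest p in each direction are named, and Vegfa. Alternatives were single probe sets, 2 array scalings, the replicate block, array weights, a prior with trend and robust fitting, a covariate for sex, the methods' t-test and the omission of each array.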

Additional observations from a re-analysis of the deposited data

Results flagged for a closer look

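Within each group of 4 arrays, 74 sets of member values were checked for 1 array far from the other 3, and 8 were found. Chance alone would give about 1 in 20, but the values of all genes were not checked in this way. The 8 therefore do not set the members apart from other genes. VEGF 3 stood above the other VEGF-labelled arrays in 3 enzymes of the later steps of glycolysis, Pgk1 at 0.29 with the next array at 0.021, Pgam1 at 0.15 with the next array at 0.0067 and Ldha at 0.23 with the next array at 0.024. Pkm in control 1 was at -0.09, below the other arrays of its group, with the nearest at -0.00019. Pfkfb3 in VEGF 2 was at 0.12, above the other arrays of its group, with the nearest at -0.024. Ndrg1 in VEGF 4 was at 0.13, above the other arrays of its group, with the nearest at -0.66. P4ha2 in control 4 was at 0.05, above the other arrays of its group, with the nearest at 0.0065. Hif1a in control 3 was at 0.04, above the other arrays of its group, with the nearest at -0.018. In Ndrg1 this array, VEGF 4, is the one that lay among the controls. No explanation was tested for any of these.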

How the results depend on the processing

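The call of 0 genes and 0 members at an adjusted p under 0.05 was unchanged in every alternative but the fit without VEGF 4, which gave 10 genes, Ndrg1 among them at -0.78. Leaving out 1 array at a time, genes past the adjusted threshold ranged between 0 and 10 and members past it between 0 and 1. Genes at an unadjusted limma p under 0.05 ranged between 1526 and 2881 (2484 with all arrays, 7.65% to 14.4% of genes against 12.5%). Higher members at that p ranged between 1 and 6 (2.7% to 16.2%), against 2.4% to 6.1% of all genes. Lower members ranged between 3 and 7 (8.11% to 18.9%), against 5.24% to 8.35% of all genes. The 7 came without control 3, where the share of all genes was 8.09%. Members without overlap ranged between 3 and 9 (8.11% to 24.3%), against 8.32% to 13.7% of all genes. The median differences ranged between 0.019 and 0.093 for the glycolytic enzymes, between -0.054 and 0.011 for the glycolytic regulators and carriers, between -0.0076 and 0.031 for the other HIF targets, between -0.075 and -0.017 for the oxygen sensing genes. With the replicate number as a block, 5 members were higher and 6 lower at an unadjusted p, against 3 and 5 without it (29.7% against 21.6% of members, where all genes gave 13.3% against 12.5%), and 0 passed the adjusted threshold. Same-numbered arrays had correlations of 0.052, -0.13, 0.45 and 0.30 of their deviations from the group means, and 2 of the 4 numbers were each other's best match, so the numbers were not taken to pair the samples. With the sex index as a covariate 2 members were higher (5.41%) and 6 lower (16.2%) at an unadjusted limma p, against 4.44% and 6.7% of all genes. With the methods' t-test 2 were higher (5.41%) and 5 lower (13.5%), against 3.31% and 7.3% of all genes. In either direction 11.1% of all genes passed with the sex index and 10.6% with the t-test. Of 571 values of members under alternatives, 23 changed sign, in 10 members, and none of the 23 had passed the test. They were, with quantile normalization, Bnip3l at 0.0048, Car9 at 0.0020. With array weights they were Bnip3l at 0.0035, Car9 at 0.0023, Adm at -0.080, Kdm3a at -0.0098, Egln1 at -0.016. With the sex index as a covariate they were Bnip3l at 0.0067. Leaving out 1 array, those that changed sign ranged between -0.024 and 0.017 for Bnip3l, between -0.063 and 0.033 for Car9, between -0.013 and 0.038 for Ankrd37, between -0.029 and 0.14 for Adm, between -0.019 and 0.28 for Pfkp, between -0.061 and 0.0019 for P4ha2, between -0.096 and 0.0083 for Hif3a, between -0.024 and 0.041 for Egln1, between -0.097 and 0.011 for Slc2a3. The cause was not tested. A filter on dim probe sets could not be run on centred values.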
